A study of Homo sapiens with 2 samples.

Results

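The ATF1 peaks of RAD18 and 9 further genes of DNA damage bypass were described in HCT116 cells, a human colon carcinoma line. The genes were RAD18, UBE2A, UBE2B, POLH, POLK, REV1, REV3L, HLTF, SHPRH and PCNA, and a peak belonged to the group when the deposited table named one of them as its gene. This held for 9 of the 10 genes, beside 60.8% of all protein-coding genes, and so for 9 of 15064 listed peaks. HLTF was not named. The members were chosen by name around RAD18, which was selected on the fold enrichment of its peak, one of the strongest in the table. That value and the order of the members by fold enrichment are therefore a description.

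The series holds 1 chromatin immunoprecipitation (ChIP) library of 3xFlag-ATF1 and 1 library of input DNA without antibody, both from HCT116 cells. The labels do not state how the tagged ATF1 was expressed or at what level, and the cells' own ATF1 gene is not described as altered. The values come from the peaks of the ChIP library. There was no replicate, so no value has an error between samples and no test between conditions was made.

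ATF1 belongs to the CREB family of transcription factors and binds the cAMP response element (CRE) and, more weakly, its half-site. Damage bypass lets a replication fork pass a damaged template base. The ubiquitin ligase RAD18 and its conjugating partner, UBE2A or UBE2B, attach ubiquitin to PCNA, the sliding clamp of replication. Marked PCNA then recruits translesion polymerases, while HLTF and SHPRH extend the mark to a chain that is used in template switching.

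The RAD18 start site carried a CRE half-site under the strongest peak of the group, and its whole promoter window is shown for that reason. Windows run from 250 bases before to 50 bases after a transcription start and were taken from RefSeq (GRCh38.p14), 5′ to 3′ along the gene. The half-site searched was TGACG, which reads CGTCA on the other strand, and it is part of the full element TGACGTCA. Capitals mark it in the sequence.
RAD18 (chr3:8963423-8963722, minus strand): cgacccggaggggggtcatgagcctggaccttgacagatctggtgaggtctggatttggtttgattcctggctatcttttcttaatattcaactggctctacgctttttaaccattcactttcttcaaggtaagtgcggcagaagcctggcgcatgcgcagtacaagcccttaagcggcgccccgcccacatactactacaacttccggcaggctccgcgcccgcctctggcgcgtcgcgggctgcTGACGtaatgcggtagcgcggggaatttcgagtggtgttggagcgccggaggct

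Stretches of 80 bases from 7 other starts under a listed peak are shown for comparison. Capitals mark half-sites, except at REV3L and UBE2A, whose windows held none and where they mark the 8 bases closest to the full element. The windows of REV1, HLTF and the outer start of REV3L also held none and are not shown.
PCNA, inner start (chr20:5119969-5120048, minus strand): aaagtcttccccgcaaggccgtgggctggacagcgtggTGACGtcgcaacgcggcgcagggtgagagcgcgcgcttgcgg
PCNA, outer start (chr20:5126648-5126727, minus strand): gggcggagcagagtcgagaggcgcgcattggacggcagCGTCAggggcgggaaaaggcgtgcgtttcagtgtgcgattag
POLK (chr5:75511707-75511786, plus strand): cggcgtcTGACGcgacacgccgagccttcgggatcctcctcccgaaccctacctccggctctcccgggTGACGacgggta
POLH (chr6:43576108-43576187, plus strand): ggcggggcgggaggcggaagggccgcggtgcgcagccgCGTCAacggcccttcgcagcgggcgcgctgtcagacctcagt
SHPRH (chr6:145964342-145964421, minus strand): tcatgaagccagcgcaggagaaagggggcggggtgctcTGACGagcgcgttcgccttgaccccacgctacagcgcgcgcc
REV3L, inner start (chr6:111483174-111483253, minus strand): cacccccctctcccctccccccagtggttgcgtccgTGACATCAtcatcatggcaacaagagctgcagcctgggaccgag
UBE2A (chrX:119574389-119574468, plus strand): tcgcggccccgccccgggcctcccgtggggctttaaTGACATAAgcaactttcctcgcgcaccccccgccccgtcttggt

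RAD18 had by far the highest fold enrichment of the group. Fold enrichment is the authors' ratio of ChIP signal to a background that is not specified in the sources used here. RAD18 had 88.56-fold enrichment, rank 6 of 15064, and 401 tags (exact Poisson interval 363 to 442, counting error only). PCNA followed at 19.11-fold and UBE2B at 15.94-fold, so that RAD18 stood 4.63 times above the next member. Of the 9 listed members these 3 reached 10-fold, beside 23.9% of all listed peaks. All 9 reached 5-fold, beside 77.5% of listed peaks, and 1, RAD18, reached 20-fold, beside 5.08%. The members had a median of 8.44-fold, against 6.97-fold over all listed peaks, and without RAD18 the median was 8.07-fold. Apart from the leading 3, the members lay between 5.35-fold and 8.68-fold, inside the quartiles of the table (5.20 and 9.76).

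**Figure D1:**
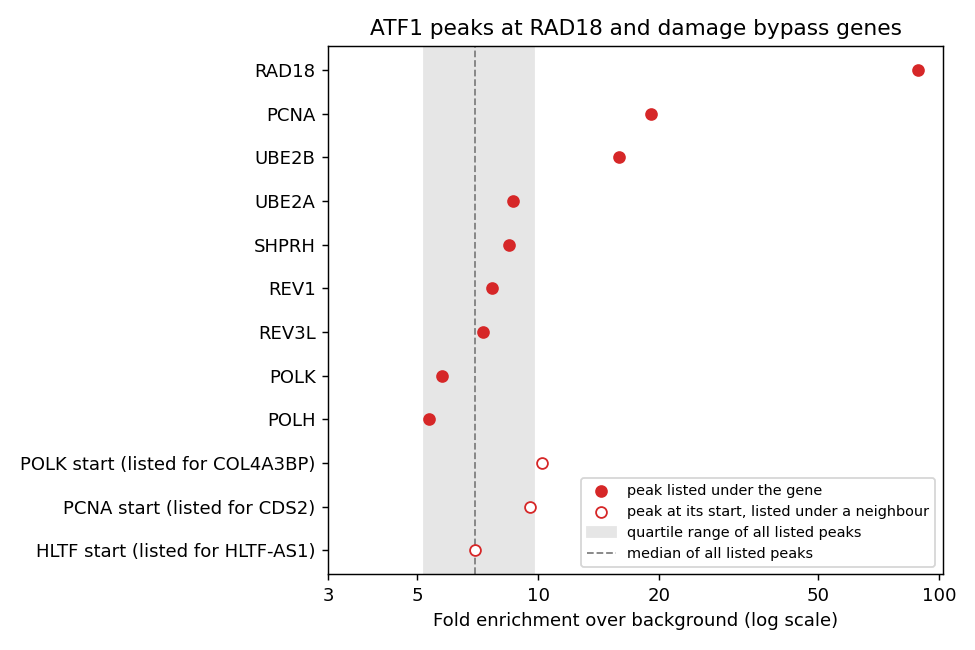
Fold enrichment (log axis) of the 9 peaks listed under a member (filled points) and of 3 peaks at the start of a member that the table lists under a neighbour (open points), with the median and the quartile range of all 15064 listed peaks. RAD18 lies at 88.56-fold, PCNA and UBE2B at 19.11-fold and 15.94-fold, and the other members near the middle of the table.

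The RAD18 peak was compact and sat on the gene's start. It spanned 1361 bp on chromosome 3 (8962814 to 8964174, hg38), shorter than the table's median of 1551 bp. The summit, at 8963479, lay 7 bp upstream of the start of RAD18 in RefSeq. The authors classed the peak as exonic, and their annotation places that end of the gene at 8969249, which is 5770 bp from the summit. No other start in the RefSeq promoter table lay within 1 kb. By tags RAD18 stood at rank 2248. Its score of 3100 was shared by 53 peaks and exceeded by 11, so the score does not order the top of the table.

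The paralogous E2 enzymes UBE2A and UBE2B, the human homologues of yeast Rad6, both had a peak beside their start. UBE2B had 390 tags (352 to 431) and 15.94-fold enrichment on chromosome 5 (134370675 to 134372552, exonic), and its summit lay 106 bp from the nearer gene end and 420 bp from the start of CDKL3, a kinase gene. UBE2A had 151 tags (128 to 177) and 8.68-fold enrichment on chromosome X (119574100 to 119575461, upstream), with the summit 144 bp before its start. The start of LOC124905208, on the other strand, was nearer to that summit, at 76 bp. The UBE2B peak thus held 2.58 times the tags of the UBE2A peak and 1.84 times its fold enrichment, and the counting intervals of the tags do not overlap. The UBE2B peak was also the longer, at 1878 bp against 1362 bp for UBE2A, and per kb of peak it held 208 tags and UBE2A 111. RAD18 and UBE2B, a ligase and its partner, had almost the same number of tags (ratio 1.03, overlapping intervals), while RAD18 had 5.56 times the fold enrichment.

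PCNA had a listed peak at each of its annotated starts, which are 6664 bp apart. The peak named for PCNA lay inside the gene on chromosome 20 (5118986 to 5120777, exonic), with 537 tags (493 to 584) and 19.11-fold enrichment. Its summit was 42 bp upstream of the inner start and 5047 bp from the nearer outer end of the gene, and 414 bp from the start of PCNA-AS1, an antisense RNA. The outer start carried a second peak (5126078 to 5127878) with 394 tags (356 to 435) and 9.54-fold enrichment, which the table names for the neighbour CDS2, an enzyme of phospholipid synthesis. That summit lay 130 bp upstream of the outer start of PCNA and 256 bp from the start of CDS2. The inner peak was therefore the stronger by fold enrichment and by tags, and the counting intervals of the tags do not overlap.

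By the peaks named for them, the catalytic polymerases of the group held from 19 to 719 tags, at 5.35-fold to 7.69-fold. The 19 tags are those of a POLK peak far from its start. The peak at the POLK start, named for COL4A3BP, had 297 tags at 10.25-fold. REV3L, the catalytic subunit of polymerase zeta, which extends from mispaired ends, had 719 tags (667 to 774), the most of the group, at 7.31-fold. Its peak was the longest, 2533 bp on chromosome 6 (111481834 to 111484366, exonic), and covered both annotated starts. They lie 493 bp apart, and the summit was 24 bp upstream of the inner one and 469 bp from the outer. REV1, a deoxycytidyl transferase that also docks other translesion polymerases, had 610 tags (563 to 660) at 7.69-fold on chromosome 2 (99488816 to 99490982, upstream), with the summit 141 bp before its start. REV3L and REV1 thus held more tags than RAD18 (REV3L 1.79 times as many) while RAD18 had 88.56-fold enrichment against their 7.31-fold and 7.69-fold.

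POLH encodes polymerase eta, which copies past ultraviolet-induced pyrimidine dimers. It had the lowest fold enrichment of the members, 5.35-fold, with 231 tags (202 to 263) on chromosome 6 (43575159 to 43576588, upstream). The summit lay between divergent starts 147 bp apart, 84 bp from that of POLH and 63 bp from that of XPO5, the exporter of microRNA precursors. Which of the pair the peak belongs to cannot be told from the table.

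The peak named for POLK, which encodes polymerase kappa, was not at its start. It was intronic, 647 bp long (chromosome 5, 75587366 to 75588012), and its summit was 75867 bp into the gene. It held 19 tags (11.4 to 29.7) at 5.77-fold, and its score of 50.26 was close to the lowest in the table, 50. The POLK start was instead covered by a peak named for COL4A3BP, an older symbol of the ceramide transporter CERT1. That peak (75510491 to 75512405) had 297 tags (264 to 333) and 10.25-fold enrichment, with its summit 136 bp upstream of the POLK start and 126 bp from one of the CERT1 starts. The stronger peak therefore stands in the table under another gene's name.

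Both ligases that extend the ubiquitin chain on PCNA had peaks of middling strength. SHPRH had 176 tags (151 to 204) and 8.44-fold enrichment on chromosome 6 (145963301 to 145964847, exonic), with the summit 30 bp downstream of its start. HLTF was absent as a name, but a peak named for its overlapping antisense RNA, HLTF-AS1, lay over its start on chromosome 3 (149085963 to 149087627). It had 132 tags (110 to 157) and 6.97-fold enrichment, equal to the table's median. The summit was 150 bp upstream of the HLTF start and 351 bp from that of HLTF-AS1.

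**Figure D2:**
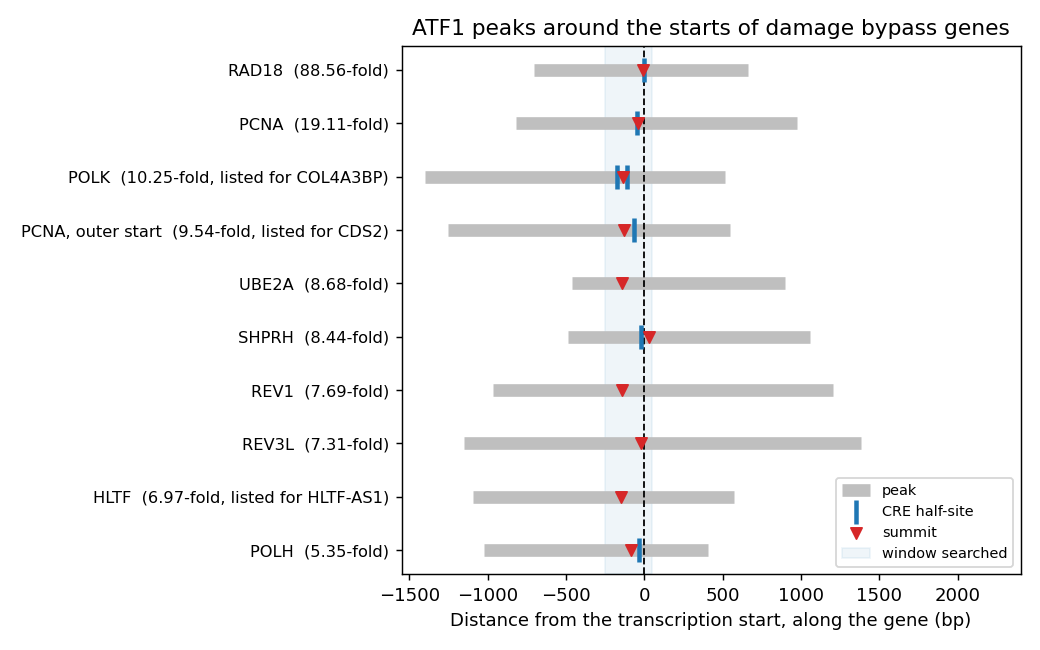
Position of the listed peaks around 10 annotated starts of 9 members, in bp along the gene, ordered by fold enrichment from the top. Grey bars span the peak, triangles mark the summit, blue ticks mark half-sites and the shaded band is the window searched. UBE2B has no promoter window and is not drawn. Only starts with a summit inside the window searched are drawn, which leaves out the outer start of REV3L and the peak named for POLK. The drawn summits lie between 150 bp upstream and 30 bp downstream of the start. The half-sites of RAD18 and PCNA (inner start) lie 3 bp and 6 bp from their summits.

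Counted by the peak named for the gene, 7 of the 10 members had a summit within 1 kb of an end of the gene, beside 37.7% of all 19970 protein-coding genes. When any listed peak counted, all 10 did, beside 48.0% of protein-coding genes. The additional genes were POLK, PCNA and HLTF, each through a peak named for a neighbour. By class, 5 of the 9 listed peaks were exonic, 3 upstream and 1 intronic, beside 43.5%, 19.9% and 33.9% of all listed peaks.

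Tags and fold enrichment ordered the members differently. The order by tags was REV3L, REV1, PCNA, RAD18, UBE2B, POLH, SHPRH, UBE2A and POLK, with counting intervals that overlap between the neighbours REV1 and PCNA, RAD18 and UBE2B, POLH and SHPRH, and SHPRH and UBE2A. REV1 was above 95.5% of all listed peaks by tags and above 58.8% by fold enrichment. For REV3L these values were 97.5% and 53.9%, and for RAD18 85.0% and 99.96%. Per kb of peak, PCNA (300 tags), RAD18 (295), REV3L (284) and REV1 (281) were close together, against a median of 88.2 over all listed peaks.

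**Figure D3:**
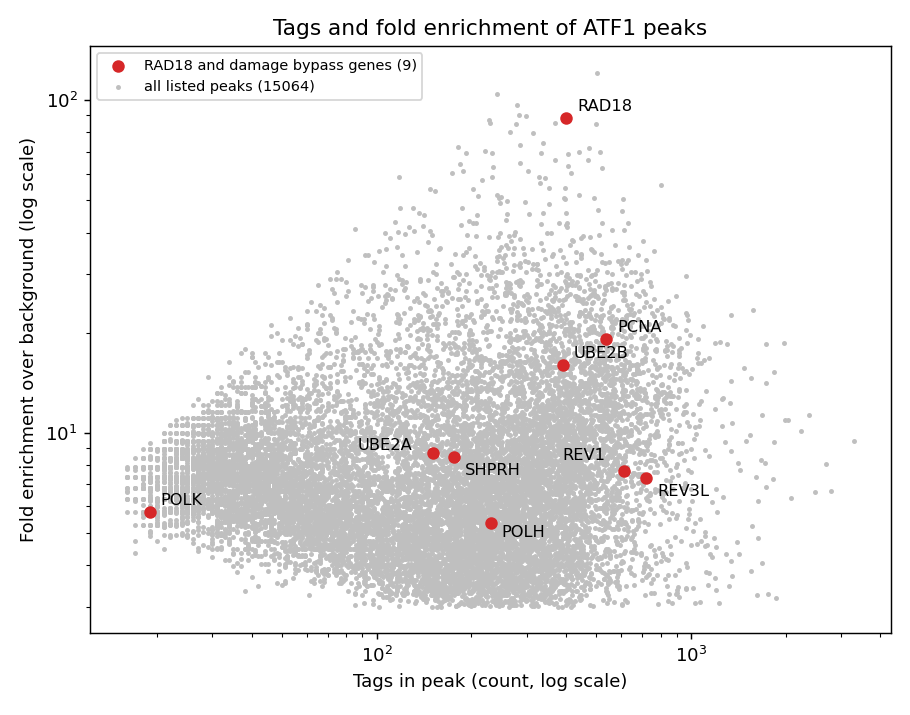
Tags (log axis) against fold enrichment (log axis) for the 9 listed members and all 15064 listed peaks. RAD18 lies near the top edge at 401 tags, REV1 and REV3L lie at 610 and 719 tags with under 8-fold enrichment, and POLK lies at the left edge with 19 tags.

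Half-sites were found in a promoter window of 5 of the 9 members that have one, beside 28.4% of all genes with a window. These were RAD18, PCNA, POLK, POLH and SHPRH. The 28.4% covers genes whether or not they have a listed peak. All 9 members had a listed summit in one of their windows, and 43.3% of all 5332 windows with a summit held a half-site. UBE2B had no window and was not searched. None of the 9 held the full element, which 2.25% of genes with a window did. Of the 9, 3 came within 1 mismatch of it, beside 14.1% of genes. The window of RAD18 held TGACGTAA (C7A), with positions counted from 1 at the 5′ end of TGACGTCA and the base of the element given first. The inner window of PCNA held TGACGTCG (A8G), and that of REV3L TGACATCA (G5A), which breaks the half-site. In UBE2A, TGACATAA carried both G5A and C7A and lay 6 bp from the summit. Matches with 2 mismatches also occurred farther from a summit. They lay at 20, 34 and 149 bp in POLK, 30 and 83 bp in SHPRH, 54 bp at the outer PCNA start, 77 bp in POLH and 175 bp in HLTF. The share of all genes with such a match was not counted. A match is a description of letters and not of a bound site.

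Among the 9 members with a window, the half-sites nearest to a summit were at RAD18, PCNA (inner start) and POLK. Their peaks also came first by fold enrichment. RAD18 was selected on its fold enrichment, so this order is a description. UBE2B, at 15.94-fold, had no window and is not part of this order. In RAD18 the half-site lay 3 bp from the summit and began 4 bp upstream of the start. In PCNA it lay 6 bp from the summit at the inner start. The POLK window held a pair, 20 bp and 37 bp from the summit of the peak named for COL4A3BP. The other half-sites were farther away, at 45 bp in POLH (5.35-fold), 51 bp in SHPRH (8.44-fold) and 63 bp at the outer start of PCNA (9.54-fold). Among these the order ran the other way, with the weakest peak having the nearest half-site. Among all 2310 windows that held both a summit and a half-site, 13.4% had them as close as in RAD18 or closer, and the median distance was 32 bp.

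Across the table, the windows of stronger peaks held the half-site more often, and the members are set beside these shares. Summits of 5332 listed peaks (35.4%) lay in a promoter window, and 1 window was used per peak. In the range of RAD18, from 40-fold upwards, 89.6% of 77 windows held a half-site (exact binomial interval 80.6 to 95.4%) and 32.5% the full element (22.2 to 44.1%). In the range of PCNA and of the peak at the POLK start, from 10-fold to under 20-fold, 58.3% of 1558 windows held a half-site (55.8 to 60.7%). Between 5-fold and under 10-fold, where POLH, SHPRH, UBE2A, REV1, REV3L, HLTF and the outer start of PCNA lie, it was 33.3% of 2421 (31.4 to 35.2%), and 3 of those 7 starts had one. Below 5-fold it was 21.6% of 813 (18.9 to 24.6%). Base composition moved with this: the median GC content was 62.3% of bases from 40-fold upwards and 72.0% below 5-fold. RAD18 had 57.7%, SHPRH 59.7%, REV3L (inner start) 74.0% and REV1 80.7%. The part of base composition in these shares was not tested.

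**Figure D4:**
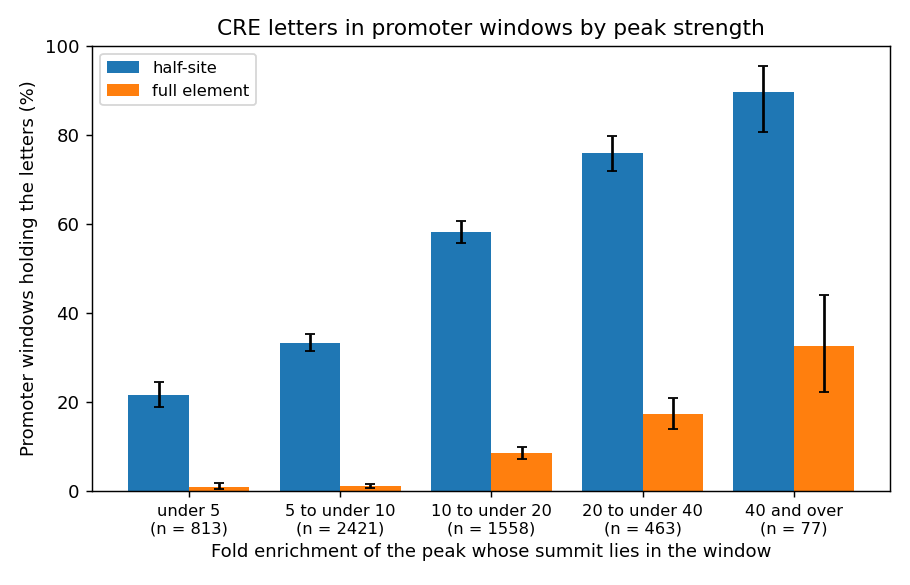
Share of promoter windows (%) that hold the half-site (blue) or the full element (orange), by the fold enrichment of the peak whose summit lies in the window. Bars carry exact 95% binomial intervals, and n is the number of windows. The half-site share is 89.6% from 40-fold upwards, the range of RAD18, and 21.6% below 5-fold.

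Further genes of damage tolerance were read from a list of 46, covering PCNA loading and unloading, ubiquitin handling, single-strand DNA binding and fork protection. Of these, 35 were named in the table, with a median of 8.92-fold and 213 tags. Of the 35, 14 reached 10-fold, beside 23.9% of all listed peaks. Of the 46, 25 had a gene-end peak named for them, beside 37.7% of protein-coding genes, and 33 had any, beside 48.0%. Over all listed peaks the medians were 6.97-fold and 162 tags.

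DTL led this list at 64.37-fold with 184 tags. It encodes the receptor of a ubiquitin ligase that acts on proteins bound to PCNA on chromatin. The ubiquitin E2 pair that builds lysine-linked chains on PCNA had 25.80-fold for UBE2V2 and 11.21-fold for UBE2N. The UBE2V2 summit lay inside the gene, more than 10 kb from its outer ends. No start of UBE2V2 was available, so its distance to an inner start was not measured. Subunits of the clamp loader, which places PCNA on DNA, had 20.47-fold (RFC1), 19.03-fold (RFC3), 11.85-fold (RFC4) and 9.85-fold (RFC2, the highest below 10-fold). The remaining subunit of this complex in the list, RFC5, had 7.17-fold with no half-site in its window, above 52.4% of all listed peaks. Of the 46 genes, only DTL, RFC1 and RFC3 held the full element in a window, beside 2.25% of all genes with a window. No window was available for 8 of the 46, among them UBE2V2, RPA2, RPA3 and UFD1. A half-site was found for 9 of the 14 genes of at least 10-fold and 7 of the 21 named genes below, beside 28.4% of genes with a window. That share covers genes whether or not they have a listed peak. For replication protein A, which coats single-stranded DNA, RPA2 had 16.80-fold and RPA3 14.18-fold. The peak named for RPA1, the largest subunit, had 5.42-fold and 25 tags and was intronic, 30413 bp from a gene end. A listed peak named for another gene lay within 500 bp of an end of RPA1, so the named peak does not describe that end. RFC5 and RPA1 are named after their values were seen.

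The remaining genes over 10-fold had other roles. RNF168, a ubiquitin ligase at DNA breaks, had 14.96-fold enrichment. VCP, a segregase that extracts ubiquitinated proteins, had 14.37-fold, and its cofactor UFD1 had 10.96-fold. SLF1, which binds RAD18, had 13.70-fold and 108 tags. TIPIN, of the fork protection complex, had 12.27-fold. POLI, the polymerase iota gene, had 10.08-fold with 251 tags and no half-site in its window. USP10, a deubiquitinating enzyme, was lowest of the list at 3.58-fold with 250 tags. MAD2L2, the partner subunit of REV3L in polymerase zeta, is named after its value was seen: it had 5.20-fold and 63 tags, in an intronic peak 1075 bp from a gene end. A listed peak named for another gene lay within 1 kb of an end of MAD2L2.

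**Figure D5:**
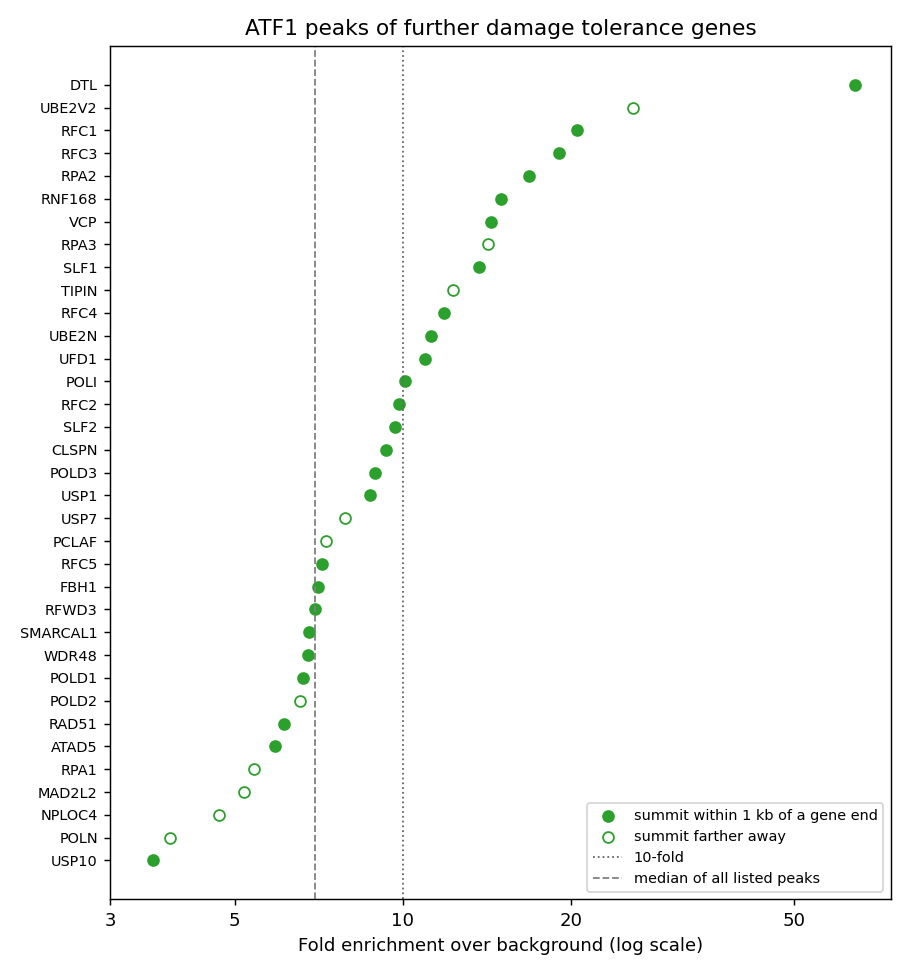
Fold enrichment (log axis) of the 35 further damage tolerance genes named in the table, with the median of all listed peaks and the 10-fold line. Filled points have their summit within 1 kb of an outer gene end. An open point can still lie at an annotated inner start, as TIPIN does, with its summit 42 bp from one. DTL lies at 64.37-fold, and 14 genes lie at or above 10-fold.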

How the data were processed

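ATF1 ChIP DNA of HCT116 cells was analysed from 1 deposited peak table; no table of the input library was used here. Per the labels' protocols, chromatin was fixed with 1% formaldehyde, sheared to 200 to 400 bp and precipitated with 5 µg of antibody. Per the submitters' processing notes, CASAVA, Bowtie2, bedtools and hg38 were used. The peak caller and its control are not given in these sources.

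The tags are raw counts per peak, deposited as whole numbers per the file headers. Per the file headers, fold enrichment is the authors' ratio (lowest 3), to a background that is not specified. The score is the authors' own, deposited without its basis. The table gives 1 peak per gene name. Another 1 line without a position was left out. Read depth is unknown, and Poisson and binomial (Clopper-Pearson) 95% intervals cover counting error only.

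Ends of 19970 protein-coding genes, starts and promoter windows came from RefSeq GRCh38.p14, the same assembly as hg38. Older symbols were matched where they belong to 1 gene. The motif search was tested on simulated sequences, and the code for distances and gene-end counts was not. Members and lists were chosen with earlier results of these data known. Genes named are the members, genes sharing their peaks, all listed genes of at least 10-fold, the highest and lowest of the rest, and the 3 peaks on each side of RAD18 by fold enrichment. MAD2L2, RFC5 and RPA1 were added after their values were seen. Alternatives changed thresholds, windows, ranking and motif. Python 3.11.15, numpy 2.4.6, pandas 2.3.3, scipy 1.17.1 and matplotlib 3.10.9 were used.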

Additional observations from a re-analysis of the deposited data

How the results depend on the processing

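The median share of listed peaks below a member was 65.9% by fold enrichment, and moved to 91.2% by score, 83.8% by tags, 89.5% by tags per kb, 57.4% among gene-end peaks, 56.9% within the same class and 56.0% among peaks of at least 5-fold. Of 56 values for single members and for the half-site share under alternatives, 4 stayed within counting error and 52 moved. The number of members at the threshold was 3 at 10-fold, 9 at 5-fold and 1 at 20-fold, and for the 46 further genes 14, 32 and 3. Members with a gene-end peak numbered 7 with windows of 500 bp, 1 kb and 5 kb and with any overlap, and 10 with any listed peak. For the further genes the counts were 24 (500 bp), 25 (1 kb), 31 (5 kb) and 33 (any listed peak). Half-sites were found for 5 members, the full element for 0 and a match with at most 1 mismatch for 3. The half-site share of 89.6% from 40-fold upwards was 97.4% for as many windows ranked by score and 70.1% ranked by tags. Alternatives chosen after seeing the data were ranking windows by score or tags, any listed peak for the further genes, and any listed peak for the 10-fold count of members, which gave 4. The cause was not tested for any of them. With 1 library no replicate could be left out. No paired analysis was possible because each group has 1 sample and the result comes from no test. Absence of a listed peak does not show absence of binding.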

Other observations

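The peaks next to RAD18 in the order of fold enrichment all held half-sites in the promoter window around their summit. The 3 just above it were at YIPF6 (96.84-fold, 3 half-sites), CDADC1 (90.00-fold, 3) and C1D (89.65-fold, 2), against 1 half-site in the RAD18 window. The 3 just below were at CCNH (87.37-fold, 1 half-site in each of 3 windows), AASDH (85.42-fold, 2) and TFIP11 (85.15-fold, 2 and 1 in its 2 windows). RAD18 held the most tags of the 7, at 401, while the others had between 227 and 369. Among the 10 windows whose peak reached 80-fold, 10 held a half-site, beside 43.3% of all 5332 windows with a summit. In 8 of the 10 it lay within 20 bp of the summit, beside 17.3% of all these windows. The full element was in 3 of the 10 (exact binomial interval 6.67 to 65.2%), beside 5.08%. RAD18 is 1 of these 10.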
